A study of Rattus norvegicus with 6 samples.

Results

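Rat sciatic nerve was examined for the 40 genes that encode the pore-forming and accessory subunits of voltage-gated sodium and calcium channels. The genes were selected by symbol from the 30957 genes of the deposited mRNA table, as Scn followed by a number and the letter a or b, or Cacn followed by a, b or g. There were 14 sodium channel genes and 26 calcium channel genes. The nerves came from 1-month-old Sprague-Dawley rats, with no genetic change named, in 3 groups of 2 rats with 1 library each, named a or b. The control group is labelled normal control, and the methods of the study describe these rats as operated on without clamping of the nerve. In the D4 and D7 groups the left sciatic nerve was clamped in its middle with forceps, and the injured tissue was taken 4 and 7 days later. The sources used here do not state the sex of the rats, or whether the tissue lay above or below the clamp. With 2 rats in each group, the p-values measure the spread between these few animals. Whole nerve was sequenced, so that fewer cells of a type and less RNA per cell cannot be told apart in any of these results.

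A sodium channel is built around an alpha subunit, which forms the pore and senses the voltage, and beta subunits, which tune its gating and act as adhesion molecules. A high-voltage-activated calcium channel has an alpha1 pore subunit with a cytoplasmic beta subunit and an extracellular alpha2delta subunit, whereas T-type alpha1 subunits can work alone. Several gamma subunits are better known as auxiliary subunits of AMPA receptors. In peripheral nerve the sodium channels of the axon carry the action potential, but the neuronal cell bodies lie outside the nerve, and most RNA of the nerve comes from Schwann cells, fibroblasts, vessels and, after injury, macrophages.

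Each library held between 18727255 and 25350886 fragments counted on genes, and the channel genes together took between 0.0515% and 0.166% of them. Mbp, a myelin protein gene that marks myelinating Schwann cells, stood at 13200 and 8010 CPM in control libraries a and b, 775 and 741 at D4, and 1990 and 1260 at D7. In every series of values the libraries stand in the order a, b. Markers of vascular smooth muscle, such as Myh11 and Acta2, summed to 6610 in control library b against 1180 in control library a and between 1000 and 1570 in the injured libraries, so control library b stood apart for this cell type. Adipocyte markers summed to 4.41 in D7 library a and to between 123 and 1100 in the other libraries, so that D7 library a stood apart for adipocytes. CPM here are deposited fragment counts per 1000000 fragments of the library, scaled with TMM factors, which correct for the share that a few abundant genes take of a library.

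Only Cacng8 was undetected, with 0 of 128203838 fragments in the 6 libraries, which allows a level of up to 0.0234 CPM over all libraries. Another 9 genes were listed with 1 to 52 fragments in all and did not pass the low-count filter of edgeR, so that they were not tested. They were the sensory neuron sodium channel gene Scn11a (12 fragments), the beta subunit gene Scn4b (52), the retinal L-type gene Cacna1f (4), Cacna2d4 (12), the skeletal muscle gamma subunit gene Cacng1 (11), Cacng2 (3), Cacng3 (1), Cacng5 (28) and Cacng6 (11). Of these, Cacng5 had 4 and 0 fragments in the control libraries, 0 and 3 at D4, and 13 and 8 at D7. The other 30 genes, 12 for sodium and 18 for calcium channels, passed the filter.

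Per unit of length, a few genes dominated the set in uninjured nerve. Levels of different genes were compared as the FPKM values of the authors. Scn7a, which encodes the sodium-channel-like protein Nax of glia that is not opened by voltage in the usual way, stood at 217 and 195 FPKM in the control libraries. Next came Cacnb3 with 52.2 and 39.0, Cacna1c with 15.0 and 15.9, and Cacng4 with 14.6 and 12.4 FPKM, and the values of these 4 genes did not overlap. Below them, Cacna2d1, Cacna1h and Cacna1a had control means of 5.86 ± 3.24, 5.43 ± 2.54 and 5.23 ± 0.259 FPKM (SD, n = 2) and could not be told apart in their order. The axonal sodium channel genes were lower, with means of 2.70 ± 0.370 FPKM for Scn3a, 1.64 ± 0.478 for Scn9a, 0.773 ± 0.133 for Scn2a and 0.443 ± 0.0438 for Scn8a (SD, n = 2). The lowest of the tested genes was Scn10a, with 0.0342 and 0.0246 FPKM. At D7 Scn7a was again the highest gene, at 143 and 83.0 FPKM. At D4 it stood at 19.0 and 21.2 FPKM and could not be told apart from Cacnb3 at 19.4 and 18.1, which was the higher gene in D4 library a.

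**Figure D1:**
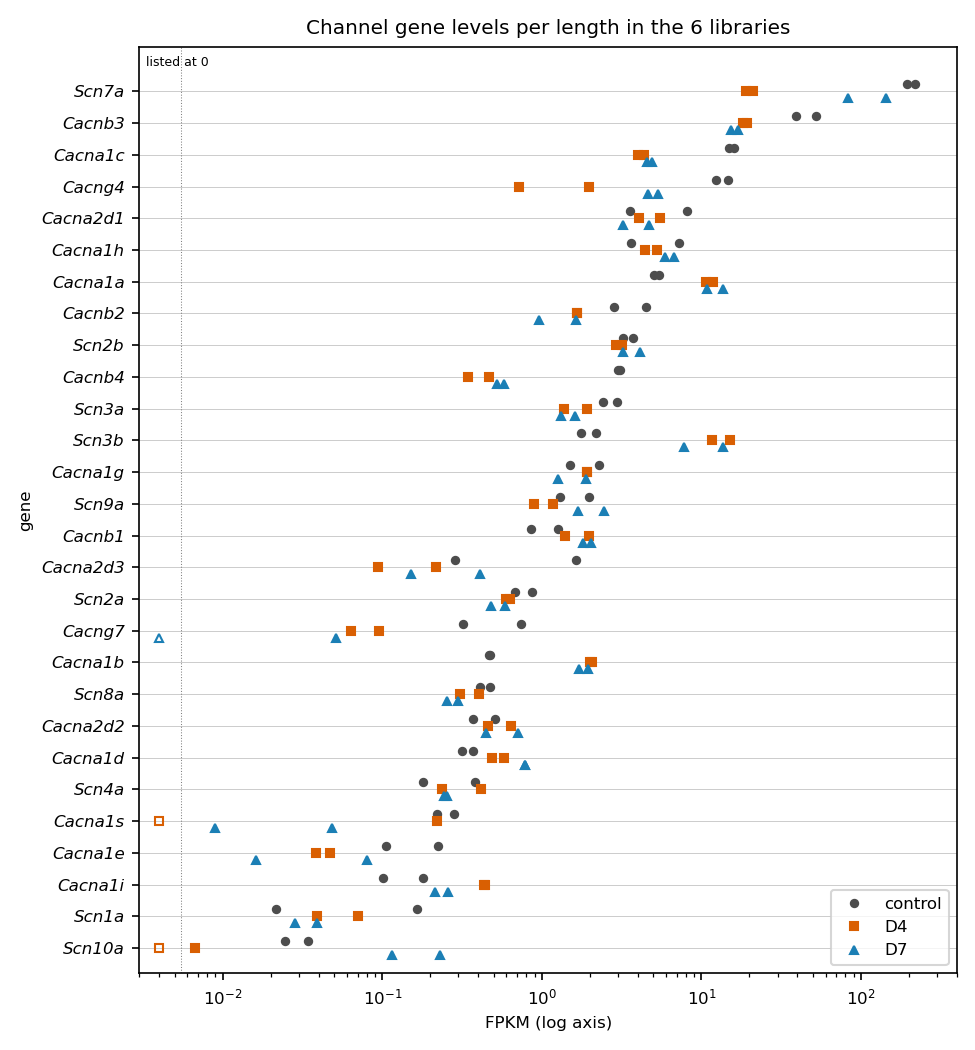
FPKM of 28 of the tested channel genes on a log axis, 1 point per library, with genes ordered by their control mean and open symbols for values listed at 0. Scn7a sits far above the rest in the control libraries at 217 and 195 FPKM, and its D4 points lie near 20.1 FPKM, the D4 mean.

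In CPM the fragments on all channel genes other than Scn7a also became fewer, from 638.5 and 656.9 in the control libraries to 392.5 and 414.8 at D4 and 429.9 and 425.5 at D7. Scn7a made up 66.8% and 63.2% of the channel fragments in the control libraries, 18.8% and 19.7% at D4, and 61.5% and 48.1% at D7. Summed levels of the beta subunits of calcium channels went from 179 and 144 to 57.3 and 56.2 at D4, and to 53.0 and 49.2 at D7. These sums are descriptions and were not tested.

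**Figure D2:**
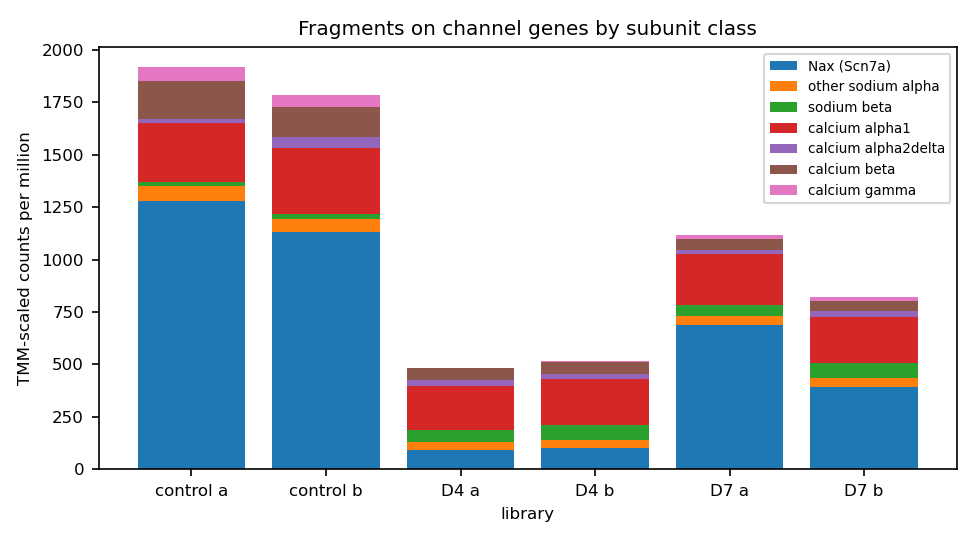
TMM-scaled CPM on channel genes in each library, stacked by subunit class. The blue part, Scn7a, takes 66.8% and 63.2% of the channel fragments in the control libraries and 18.8% and 19.7% at D4.

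Differential expression was tested for all 15195 genes that passed the filter, and a call needed a change of at least 2-fold together with an adjusted p below 0.05. In the control vs D4 group, 3 of the 30 channel genes were upregulated (Scn3b, Cacna1b and Cacna1i), beside 11.2% of all tested genes, and 7 were downregulated (Scn7a, Cacna1c, Cacnb2, Cacnb3, Cacnb4, Cacng4 and Cacng7), beside 10.7% of all. In the control vs D7 group, 3 were upregulated (Scn3b, Cacna1b and Scn10a), beside 9.83% of all tested genes, and 8 were downregulated, beside 9.02% of all, namely the same 7 genes and Scn3a. In either direction 33.3% of the tested channel genes were called at D4 and 36.7% at D7, against 21.9% and 18.8% of all genes. The median log2 fold change of the channel genes was −0.73 at D4 and −0.81 at D7, and that of all genes −0.04 and 0.01. These figures describe genes that passed the filter and were given no test of their own, and the 2 comparisons share their control libraries. Without the TMM factors the median of all genes moved to 0.25 at D4 and 0.31 at D7, and the channel calls split into 4 rises and 7 falls at D4, and 6 rises and 6 falls at D7. Without D7 library a, 5 channel genes in place of 8 were downregulated at D7.

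**Figure D3:**
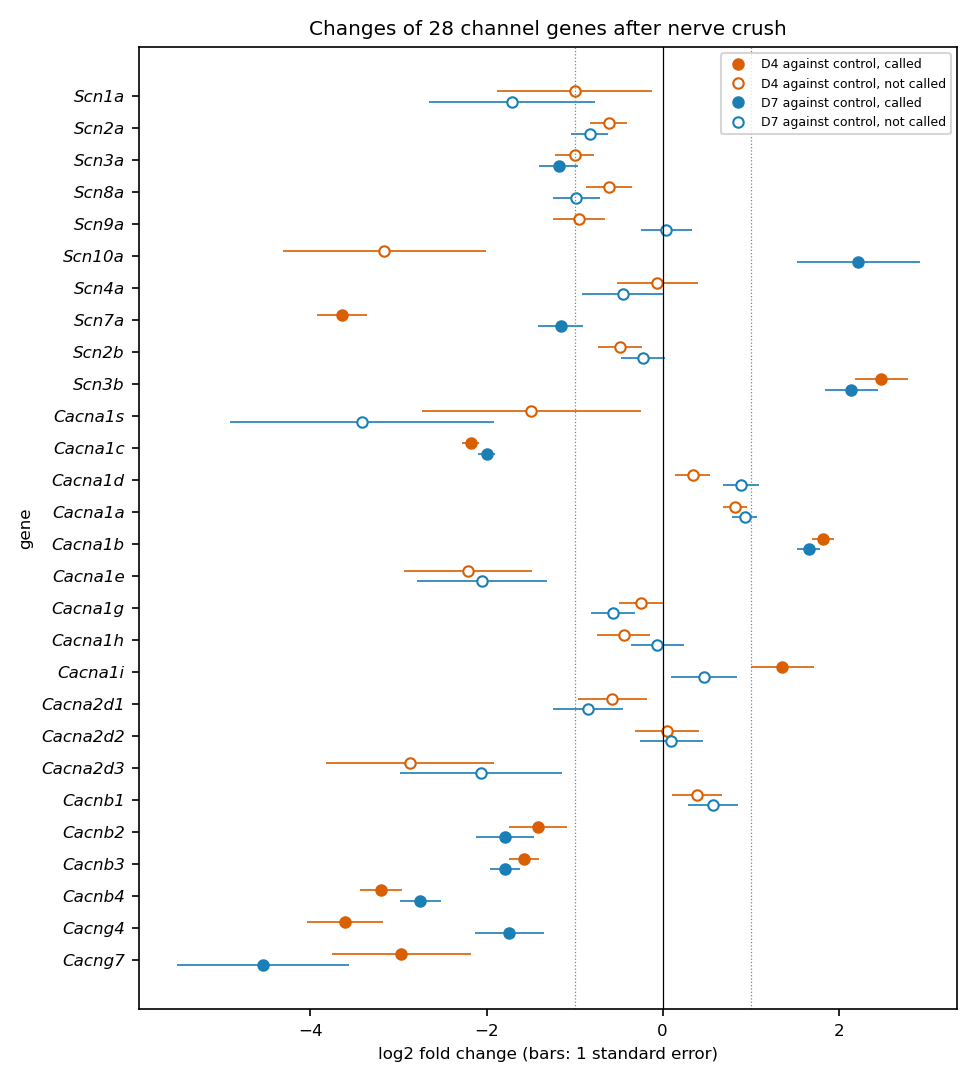
Log2 fold changes of 28 of the tested channel genes at D4 and D7 against control, with bars of 1 standard error and filled points for called genes. The calcium channel beta and gamma subunit genes lie left of −1 at both days except Cacnb1, and Scn3b and Cacna1b lie right of 1 at both days.

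Scn7a had 24921 and 18703 fragments in the control libraries, 2216 and 2755 at D4, and 14641 and 7955 at D7. It was low in both D4 libraries and in between in both D7 libraries, and no group overlapped another. The gene, ENSRNOG00000029342 on chromosome 3 from 52777214 to 52849907 (Rnor_6.0), was 12.5-fold lower at D4 (log2 fold change −3.64, standard error 0.28, edgeR adjusted p = 0.000334) and 2.23-fold lower at D7 (log2 fold change −1.16, standard error 0.26, edgeR adjusted p = 0.0166). Between the 2 days it rose 5.61-fold (edgeR adjusted p = 0.0143). The D7 call rested on the scaling and on single libraries. The log2 fold change at D7 was −0.86 without TMM factors, −0.81 without D7 library b, and −1.06 with an adjusted p of 0.0554 without control library a. The direct comparison of the days had adjusted p-values of 0.169 and 0.128 without D4 library a or b, with log2 fold changes of 2.41 and 2.57. Mbp had its lowest values at D4 as well, with log2 fold changes of −3.81 at D4 and −2.70 at D7 (edgeR adjusted p = 0.000469 and 0.00175), and was not called between the days (1.10, adjusted p = 0.0947). The 3 tested markers shared by all Schwann cells (Sox10, S100b and Erbb3) summed to 3160 and 2610 CPM in the control libraries, 2670 and 2890 at D4, and 3440 and 2840 at D7, but their members moved apart. Erbb3 was upregulated, 2.19-fold at D4 and 2.72-fold at D7, S100b had log2 fold changes of −0.81 and −0.96 and Sox10 of 0.07 and 0.63, and neither of these was called. The part of Schwann cell state or number in the change of Scn7a was not tested.

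Promoters of 4 channel genes called at both days are shown because they were the genes of that kind with the most fragments for which a window was at hand, 3 that fell and 1 that rose. Each is the 250 bases before the RefSeq start site on the GRCr8 build, on the strand of the gene, and capitals mark every match to the motifs searched on both strands. The windows lie at chr3:71846285-71846534 for Scn7a, chr4:154051749-154051998 for Cacna1c and chr3:27944286-27944535 for Cacna1b, all on the minus strand, and chr7:131666301-131666550 on the plus strand for Cacnb3.
Scn7a: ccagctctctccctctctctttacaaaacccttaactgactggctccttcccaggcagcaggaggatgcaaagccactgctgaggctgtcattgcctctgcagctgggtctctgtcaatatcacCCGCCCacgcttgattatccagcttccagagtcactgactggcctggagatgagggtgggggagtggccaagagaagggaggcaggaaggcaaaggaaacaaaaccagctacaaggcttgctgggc
Cacna1c: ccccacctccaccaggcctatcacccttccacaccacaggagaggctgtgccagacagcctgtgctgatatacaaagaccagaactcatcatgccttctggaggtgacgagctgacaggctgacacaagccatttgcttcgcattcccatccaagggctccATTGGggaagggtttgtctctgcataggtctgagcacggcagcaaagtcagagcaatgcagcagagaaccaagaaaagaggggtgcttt
Cacnb3: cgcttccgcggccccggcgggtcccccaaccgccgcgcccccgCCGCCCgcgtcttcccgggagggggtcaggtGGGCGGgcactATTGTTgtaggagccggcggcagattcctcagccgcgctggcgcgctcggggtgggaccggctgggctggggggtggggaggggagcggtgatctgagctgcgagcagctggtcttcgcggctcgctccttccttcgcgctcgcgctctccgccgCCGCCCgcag
Cacna1b: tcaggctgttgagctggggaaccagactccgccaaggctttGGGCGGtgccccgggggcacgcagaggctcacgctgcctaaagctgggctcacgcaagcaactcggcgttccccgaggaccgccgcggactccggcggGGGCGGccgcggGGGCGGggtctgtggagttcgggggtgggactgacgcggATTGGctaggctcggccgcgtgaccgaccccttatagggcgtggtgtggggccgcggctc
The Scn7a and Cacna1c windows held 2 and 3 CG dinucleotides, while those of Cacnb3 and Cacna1b held 35 and 28, against a median of 5 over all 33469 windows. The windows of the 3 genes that fell thus differed in base composition. The motifs were the TATA box (TATAAA), the CCAAT box (CCAAT), the GC box (GGGCGG), an E-box (CACGTG), the AP-1 motif (TGANTCA) and a SOX motif (AACAAT). Of the 40 channel genes 27 had a window, taken as the first listed where there were several, and 13 of these (48.1%) held a GC box, compared with 30.5% of all windows. A CCAAT box was found in 4 (14.8%) against 34% of all, an AP-1 motif in 1 (Scn3a, 3.70%) against 6.34%, a SOX motif in 3 (11.1%) against 10.3%, a TATA box in 2 (7.41%) against 12.9%, and the E-box in 0 of 27 against 5.59%. The windows of the 27 channel genes had a median GC content of 62.8% and a median of 11 CG dinucleotides. Over all windows these medians were 51.2% and 5. The set of all windows was not cut to 1 window for each gene, as the channel genes were. The part of base composition in the motif shares was not tested. A match is only a run of letters in this window, and no binding was measured.

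The 5 sodium channel genes on chromosome 3 (Scn3a, Scn2a, Scn1a, Scn9a and Scn7a) lie within 1317 kb, from 51532627 to 52849907. The neighbours of Scn7a did not share the size of its fall. Scn3a, the alpha subunit known best from embryonic and injured neurons, had 557 and 382 fragments in the control libraries, 370 and 292 at D4, and 219 and 254 at D7. Both injured groups lay below both control libraries once scaled, and the gene was called at D7 (log2 fold change −1.18, standard error 0.22, edgeR adjusted p = 0.00899). At D4 it was just short of the 2-fold limit (log2 fold change −0.9955, edgeR adjusted p = 0.0129), and without control library b or D4 library a it passed, with −1.15 and −1.26. The D7 call was lost without D7 library a (−1.01, adjusted p = 0.0542) and without TMM factors (−0.88).

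Scn2a, a channel of central axons, had 154 and 164 fragments in the control libraries, 146 and 153 at D4, and 97 and 111 at D7, with log2 fold changes of −0.61 and −0.83 (edgeR adjusted p = 0.0549 and 0.0258), under the 2-fold limit at both days. Scn8a encodes the main sodium channel of the mature node of Ranvier. It had 98 and 71 fragments in the control libraries, 64 and 94 at D4, and 47 and 51 at D7. Its log2 fold change of −0.98 at D7 (edgeR adjusted p = 0.0323) was also just short of 2-fold. The scaled values of Scn2a and Scn8a in all 4 injured libraries were below both control libraries.

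Scn9a, the pain-related channel of sensory and sympathetic neurons, showed another course. It had 472 and 259 fragments in the control libraries, 216 and 318 at D4, and 522 and 336 at D7. The log2 fold change was −0.95 at D4 (edgeR adjusted p = 0.0413) and 0.04 at D7 (standard error 0.29), so the D7 libraries overlapped the control libraries while the D4 libraries did not. Without control library b the D4 value passed the limit (−1.24, adjusted p = 0.0240). Both D7 libraries lay above both D4 libraries, by 1.99-fold in the fit, but the difference was not called (edgeR adjusted p = 0.108). Scn1a had 6 and 38 fragments in the control libraries, 11 and 22 at D4, and 7 and 9 at D7, and the control libraries alone spanned the whole range. Without control library a its D7 value was −2.55 with an adjusted p of 0.0306, which rests on the 38 fragments of control library b.

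Among the tetrodotoxin-resistant channels, Scn10a, a marker of nociceptive sensory neurons, had 5 and 3 fragments in the control libraries, 1 and 0 at D4, and 30 and 14 at D7. The 3 groups did not overlap, at a level that never passed 1.41 CPM. At D7 the gene was called upregulated with 44 fragments against 8, a ratio of 4.78 with a 95% exact counting interval of 2.23 to 11.8 (edgeR adjusted p = 0.0493). The D7 to D4 ratio, 44 fragments against 1, was 54.8 with an interval of 9.33 to 2210, and passed the test (edgeR adjusted p = 0.0376). These intervals cover counting error alone. The call against control was lost in each fit that left out 1 library, with log2 values between 1.65 without D7 library a and 2.64 without D7 library b and adjusted p-values between 0.0594 and 0.242. It was also lost with DESeq2 (adjusted p = 0.0992) and without the low-count filter (0.0708). The D7 against D4 call was lost without D4 library a (adjusted p = 0.209), D4 library b (0.228) or D7 library a (0.182), and with the library letter as a replicate block (0.0502). With a filter on a mean count of 10 the gene was not tested. The 11 neuron or axon markers summed to 119 and 98.8 CPM in the control libraries, 112 and 134 at D4, and 289 and 392 at D7, with 2 of 9 tested markers upregulated at D7 and 3 downregulated. The neurofilament genes Nefl (9.68 and 10.7 CPM in the control libraries, 131 and 202 at D7) and Nefm (3.86 and 2.89, then 86.2 and 122) were the 2 that rose and made up most of the D7 sums. The neuronal nuclear marker Rbfox3 had 1, 0, 0, 0, 0 and 1 fragments. Their part in the Scn10a result was not tested.

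Scn4a, the channel of skeletal muscle, had 28 and 50 fragments in the control libraries, 66 and 42 at D4, and 34 and 33 at D7, with overlap of all groups. It was not called (edgeR adjusted p = 0.927 at D4 and 0.481 at D7). Skeletal muscle markers, 12 of 15 found in the table, summed to 34.8 and 79.8 CPM in the control libraries, 107 and 15.6 at D4, and 15.4 and 34.1 at D7, with Myot at 0 in every library. The 2 libraries with the highest sums, control b and D4 a, also had the highest Scn4a levels, 3.01 and 2.71 CPM, and the part of muscle in these values was not tested.

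Of the sodium channel beta subunit genes, Scn3b was the only one that passed the threshold. It had 154 and 160 fragments in the control libraries, 1041 and 1487 at D4, and 604 and 991 at D7. Every injured library lay above both control libraries. The gene, ENSRNOG00000057221 on chromosome 8 from 44136496 to 44159010, was 5.56-fold higher at D4 (log2 fold change 2.48, standard error 0.30, edgeR adjusted p = 0.00140) and 4.41-fold higher at D7 (log2 fold change 2.14, edgeR adjusted p = 0.00314). Scn2b had 87 and 63 fragments in the control libraries, 75 and 77 at D4, and 67 and 80 at D7, and was not called (edgeR adjusted p = 0.159 at D4 and 0.508 at D7). Macrophage markers, 6 of 6 upregulated at D4, summed to 180 and 154 CPM in the control libraries, 609 and 597 at D4, and 391 and 492 at D7. Markers of injured or immature Schwann cells, 5 of 7 upregulated at each day, summed to 127 and 128, then 2620 and 2810, then 1690 and 1640. Both lists moved with Scn3b and Cacna1b, and their part in those results was not tested.

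**Figure D4:**
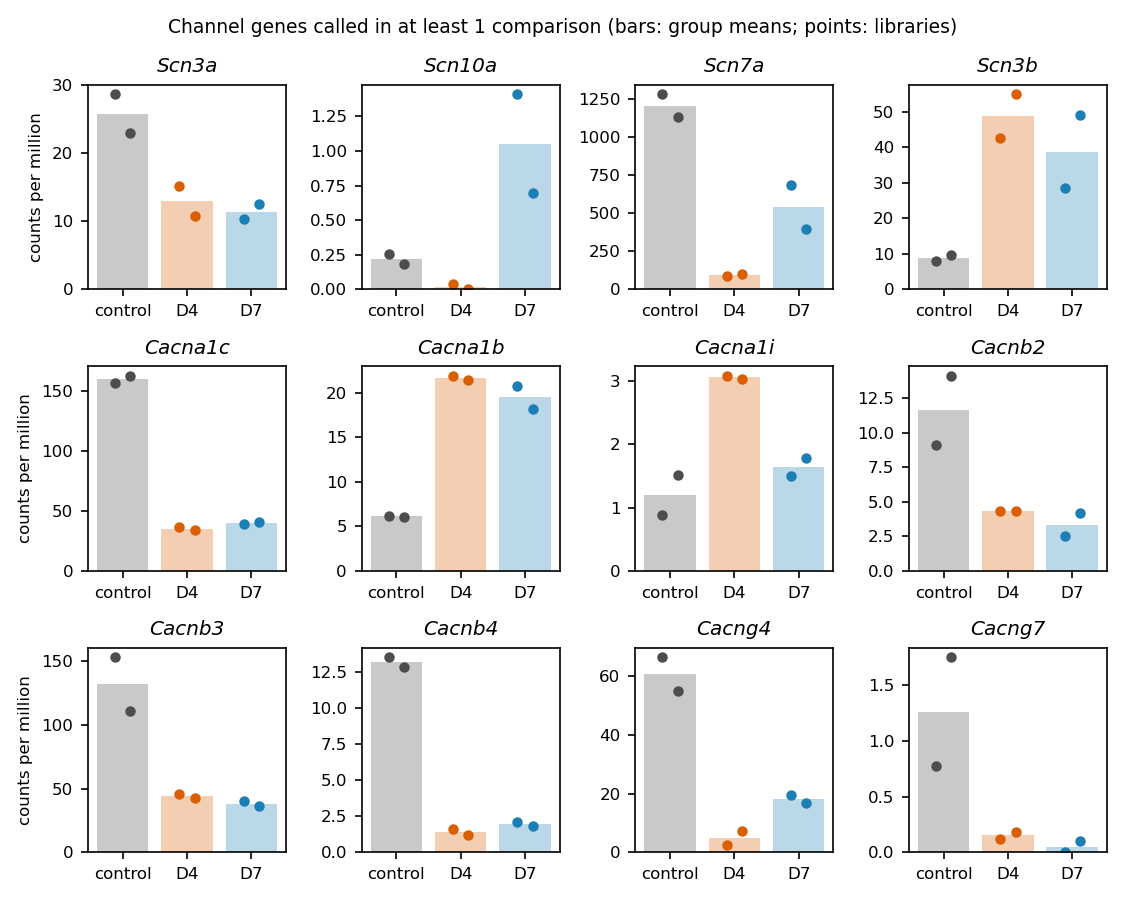
TMM-scaled CPM of the 12 channel genes called in at least 1 comparison, with bars for group means and a point for each library. Both D4 points of Scn7a lie near the bottom, at 91.0 and 102 against 1280 and 1130 in the control libraries, while Cacna1b and Scn3b stand above control at both days.

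The alpha1 subunits of calcium channels went in different directions. Cacna1c, which encodes the L-type pore of heart, smooth muscle and many neurons, had 3049 and 2702 fragments in the control libraries, 902 and 915 at D4, and 829 and 829 at D7. The control libraries were well apart from all injured ones, and libraries of a group were close to each other. The gene, ENSRNOG00000007090 on chromosome 4 from 150641066 to 150829913, was 4.52-fold lower at D4 (log2 fold change −2.18, standard error 0.10, edgeR adjusted p = 0.000120) and 4.00-fold lower at D7 (log2 fold change −2.00, edgeR adjusted p = 0.000245). Cacna1c was at 157 and 163 CPM in the control libraries. Of the 7 smooth muscle and pericyte markers, with sums of 1180 and 6610 CPM there, 1080 and 1260 at D4 and 1000 and 1570 at D7, the pericyte gene Rgs5 was downregulated at both days (2.54-fold and 2.21-fold) and the other markers were not called. Endothelial markers summed to 789 and 1420 CPM in the control libraries, 491 and 459 at D4, and 254 and 455 at D7, with 2 of 4 downregulated at D4 and 4 of 4 at D7. Fibroblast and perineurial markers summed to 28700 and 30000, then 19800 and 18300, then 14200 and 15900, with 1 of 6 downregulated at D4 and 3 of 6 at D7. Col1a1 made up most of these sums, with 24900 and 26500 CPM in the control libraries. Cldn1 was downregulated at both days, 2.9-fold at D4 and 2.56-fold at D7, and Slc2a1 and Col1a1 were downregulated at D7 only. Pdgfra had log2 fold changes of 0.68 at D4 and 0.49 at D7, Lum of −0.05 and −0.21, and Dcn of −0.56 and −0.59. Pdgfra, Lum and Dcn were not called. The part of these cells in the fall of Cacna1c was not tested. Cacna1d, the neuronal and endocrine L-type gene, had 96 and 69 fragments in the control libraries, 129 and 170 at D4, and 181 and 171 at D7, with a log2 fold change of 0.89 at D7 (edgeR adjusted p = 0.0170) that passed the 2-fold limit without control library a (1.03) or without TMM factors (1.19). Cacna1s, the L-type pore of skeletal muscle, had 35 and 23 fragments in the control libraries, 28 and 0 at D4, and 1 and 5 at D7. It was not called (edgeR adjusted p = 0.361 and 0.123), but was called at D4 without D4 library a, whose loss leaves 0 fragments at D4, and at D7 without D4 library a or b (log2 fold change −3.40 in both).

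Of the presynaptic calcium channel genes, Cacna1b rose at both days. Cacna1b, the N-type pore that opens for transmitter release, had 120 and 101 fragments in the control libraries, 533 and 579 at D4, and 442 and 367 at D7. All injured libraries were above both control libraries. The gene, ENSRNOG00000004560 on chromosome 3 from 1740024 to 1924827, was 3.52-fold higher at D4 (log2 fold change 1.82, standard error 0.13, edgeR adjusted p = 0.000281) and 3.17-fold higher at D7 (log2 fold change 1.66, edgeR adjusted p = 0.000615). Cacna1a, the P/Q-type pore, had 1086 and 844 fragments in the control libraries, 2175 and 2685 at D4, and 2425 and 1827 at D7. It was higher in all injured libraries, 1.76-fold at D4 and 1.91-fold at D7 (edgeR adjusted p = 0.00511 and 0.00411), short of the fold limit. It was called at both days without TMM factors (log2 fold changes 1.11 and 1.23), and at D7 without control library a (adjusted p = 0.0136) or D7 library b (1.09). Cacna1e, the R-type pore, went the other way in its values, with 22 and 39 fragments in the control libraries, 10 and 9 at D4, and 3 and 14 at D7. Its log2 fold changes of −2.21 and −2.05 missed the test (edgeR adjusted p = 0.0522 and 0.0744). The D4 call appeared without either D7 library (adjusted p = 0.0308 and 0.0306), and with DESeq2 (adjusted p = 0.0446), and the D7 call without D7 library b (−3.57, adjusted p = 0.0354).

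Of the T-type pores, Cacna1i had 17 and 25 fragments in the control libraries, 75 and 82 at D4, and 32 and 36 at D7. Both D4 libraries stood above the others, and the gene was upregulated at D4 by a log2 fold change of 1.36 (standard error 0.36, edgeR adjusted p = 0.0239) and not called at D7 (0.47, adjusted p = 0.347). The difference between the days was not called (edgeR adjusted p = 0.178). Leaving out control library a (1.02, adjusted p = 0.0823), D4 library a (1.35, 0.107) or D4 library b (1.37, 0.103) ended the D4 call. Cacna1g and Cacna1h, the other T-type genes, had 235 to 454 and 643 to 1067 fragments per library, respectively. Neither was called, with log2 fold changes between −0.56 and −0.06 and edgeR adjusted p-values between 0.129 and 0.883. The control libraries of Cacna1h alone lay at 33.1 and 64.3 CPM, and the injured ones between 32.9 and 49.7.

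No alpha2delta gene was called. Cacna2d1, whose protein binds gabapentin, had 373 and 710 fragments in the control libraries, 584 and 479 at D4, and 300 and 409 at D7, and the control libraries spread over most of the range. Its log2 fold changes were −0.57 and −0.85 (standard errors 0.39 and 0.40). Without control library a they were −1.04 and −1.32 and passed the threshold (adjusted p = 0.0337 and 0.0207). Cacna2d3 had 21 and 101 fragments in the control libraries, 7 and 18 at D4, and 10 and 25 at D7, with log2 fold changes of −2.87 and −2.06 (edgeR adjusted p = 0.0517 and 0.125). It was called without control library a (−3.65 and −2.83) and with the library letter as a replicate block (−2.68 and −1.85, adjusted p = 0.0112 and 0.0344). At D4 it was also called with DESeq2 (−2.89, adjusted p = 0.0105) and without the low-count filter (−2.86, edgeR adjusted p = 0.0404). For both genes the higher control value was in library b, the library with the high smooth muscle markers. Endothelial markers (1420 against 789 CPM) and skeletal muscle markers (79.8 against 34.8) were also higher in control library b than in control library a. The part of any of these cell types in the spread was not tested. Cacna2d2 had between 42 and 82 fragments in every library and log2 fold changes of 0.05 and 0.10 (standard error 0.36 at each day).

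The beta subunits of calcium channels, cytoplasmic proteins that bring the pore to the membrane, fell in 3 of 4 genes at each day, beside 10.7% of all tested genes called lower at D4 and 9.02% at D7. Mbp also fell at both days, as did 2 of 4 endothelial markers at D4 and 4 of 4 at D7, and their part in these falls was not tested. Cacnb3, the most abundant, had 2963 and 1843 fragments in the control libraries, 1116 and 1159 at D4, and 859 and 729 at D7. It was 2.98-fold lower at D4 and 3.45-fold lower at D7 (edgeR adjusted p = 0.000901 and 0.000910). Cacnb4 had 263 and 212 fragments in the control libraries, 40 and 33 at D4, and 44 and 37 at D7. It fell the most, 9.19-fold at D4 (log2 fold change −3.20, standard error 0.24, edgeR adjusted p = 0.000299) and 6.74-fold at D7 (edgeR adjusted p = 0.000687). Cacnb2, a common partner of the L-type pore in heart, had 177 and 234 fragments in the control libraries, 105 and 117 at D4, and 53 and 85 at D7. Its log2 fold changes were −1.42 and −1.79 (edgeR adjusted p = 0.0151 and 0.00902). The D4 call of Cacnb2 ended without control library b (−1.08, adjusted p = 0.0606), D4 library a (0.0854) or D4 library b (0.0870). For these 3 genes every injured library lay below both control libraries. Cacnb1, the partner of the skeletal muscle channel, had 81 and 101 fragments in the control libraries, 135 and 212 at D4, and 173 and 144 at D7, and was not called (log2 fold changes 0.39 and 0.57, edgeR adjusted p = 0.296 and 0.153).

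Of the 8 gamma subunit genes only Cacng4 and Cacng7, both of the kind that attends AMPA receptors, had enough fragments to be tested, and both fell at each day. Cacng4 had 1291 and 913 fragments in the control libraries, 65 and 196 at D4, and 417 and 340 at D7. The 3 groups did not overlap, with D4 the lowest. It lies on chromosome 10 from 95951234 to 96015499 between Cacng1 and Cacng5, which had at most 13 fragments in a library. It was 12.2-fold lower at D4 (log2 fold change −3.61, standard error 0.43, edgeR adjusted p = 0.00138) and 3.34-fold lower at D7 (log2 fold change −1.74, standard error 0.39, edgeR adjusted p = 0.0172). The D7 call was lost without control library a (−1.60, adjusted p = 0.0561), D7 library a (−1.82, 0.0599) or D7 library b (−1.63, 0.0684). Cacng4 was higher at D7 than at D4 by 1.87 on the log2 scale (edgeR adjusted p = 0.0627), which DESeq2 called (adjusted p = 0.000256). Cacng7 had 15 and 29 fragments in the control libraries, 3 and 5 at D4, and 0 and 2 at D7. The control level was 7.88 times that of D4 (95% exact counting interval 3.67 to 19.4) and 25.3 times that of D7 (6.61 to 216). The edgeR adjusted p was 0.0255 at D4 and 0.0148 at D7, and rose at D4 to 0.128 without control library b, 0.146 without D4 library a and 0.117 without D4 library b, and at D7 to 0.0622 without control library b and 0.0628 without D7 library a.

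Set against D4 directly, D7 had 2 called genes among the 30 tested channel genes, Scn7a and Scn10a. Both were higher at D7, beside 1.68% of all tested genes called higher, and 0 were lower, beside 0.494% of all (2.18% in either direction). At an unadjusted edgeR p under 0.05 there were 6 channel genes, but the share of all genes at that limit was not taken. DESeq2 also called 2, but these were Scn7a and Cacng4, and it gave no adjusted p for Scn10a. Most of the other channel genes called at both days differed little between the days. Scn3b, Cacna1b, Cacna1c, Cacnb2, Cacnb3 and Cacnb4 had D7 against D4 differences between −0.37 and 0.45 on the log2 scale, with edgeR adjusted p-values between 0.312 and 0.549. Without D4 library a or b the count of called channel genes was 0, and in these fits no gene of the whole table was called.

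Genes whose proteins bind, regulate or act next to these channels were read from a list of 45, of which 43 were found and 40 tested. At D4, 2 of the 40 were called higher and 13 lower, beside 11.2% and 10.7% of all tested genes. At D7, 2 rises and 11 falls were called, beside 9.83% and 9.02% of all. Nedd4l, a ubiquitin ligase that removes sodium channels from the membrane, rose from 557 and 601 fragments to 2192 and 3415 at D4 (log2 fold change 1.74) and 1172 and 1545 at D7 (1.02). Rem2, an inhibitor of calcium channels of the RGK family, rose from 0 and 2 to 10 and 16 at D4 and 25 and 19 at D7 (edgeR adjusted p = 0.0406 and 0.0145). The ryanodine receptors release calcium from internal stores. Ryr3 fell from 416 and 474 fragments to 9 and 42 at D4 (log2 fold change −4.67) and stood at 764 and 453 at D7, the only listed partner called between the days (4.89, edgeR adjusted p = 0.0153). Ryr2 fell from 331 and 956 to 45 and 75 at D4 and 20 and 93 at D7 (log2 fold changes −4.00 and −3.76). Jph3, a protein that ties the cell membrane to the calcium store, fell from 23 and 27 to 0 and 7 at D4 (edgeR adjusted p = 0.0266) and stood at 27 and 26 at D7. At D7 the synaptic protein gene Snap25 fell from 82 and 21 to 3 and 6 (edgeR adjusted p = 0.0147), and Fam155b, related to a subunit of the sodium leak channel, from 60 and 38 to 13 and 8 (log2 fold change −2.40). Without D4 library a or b, 7 and 9 partners were called at D4 in place of 15.

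The lncRNA table held between 2694777 and 3043817 fragments per library. On the loci of 19 channel genes lay 48 lncRNA transcripts, 41 of them wholly inside the gene span, and 25 passed the filter. Of these, 2 were called at D4, both upregulated, beside 10.1% of all tested lncRNAs called in either direction. NONRATT028622.2, inside Scn3b on chromosome 8 from 44147169 to 44147631, had 5 and 8 fragments in the control libraries, 45 and 75 at D4, and 26 and 49 at D7 (D4 log2 fold change 3.00, edgeR adjusted p = 0.0249). NONRATT014132.2, inside Cacna1a on chromosome 19 from 25723613 to 25724341, had 28 and 23 in the control libraries, 57 and 73 at D4, and 55 and 47 at D7 (D4 log2 fold change 1.18, edgeR adjusted p = 0.0442). The host genes Scn3b and Cacna1a were 5.56-fold and 1.76-fold higher at D4. All 9 tested transcripts on Cacna1a had positive values, from 0.31 to 1.68 at D4. At D7, 0 were called by edgeR, beside 5.79% of all in either direction, and DESeq2 called 1. An unadjusted edgeR p under 0.05 at D7 was found for 9 transcripts, and the share of all lncRNAs at that limit was not taken. Leaving out any 1 library left 0 or 1 of these transcripts called at D4. Whether counting used the strand is not stated, so fragments of a host gene and of a transcript inside it cannot be told apart.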

How the data were processed

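RNA of 6 sciatic nerves, 2 for each group, was sequenced after removal of ribosomal RNA. The authors, per the submitters' processing notes, used HISAT2 2.0.4, StringTie 1.3.0 and the rat build Rnor_6.0, and deposited raw fragment counts for each gene and lncRNA transcript. They also deposited FPKM values, which follow the mRNA total of each library and were used for levels between genes only. Here low counts were removed with filterByExpr, TMM factors were computed (0.863 to 1.08 for mRNAs), and the counts were fitted in 1 quasi-likelihood model of all 6 libraries with edgeR 4.0.16 in R 4.3.3, for mRNAs and lncRNAs separately, with Benjamini-Hochberg adjustment over all 15195 genes or 14077 lncRNAs tested. Calls used the limits of the study's methods, 2-fold and an adjusted p of 0.05. A standard error was taken as the size of the log2 change over the root of its F statistic. Libraries of a group differed by more than sampling noise (chi-square per degree of freedom 15.7 to 49.2). The depth was 18727255 to 25350886 fragments per library.

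Of the 30 channel genes that passed the filter, 28 are named, as some genes are not reported here, though counts and sums over classes include them. Of the partner list, the rule names the called genes with the 3 largest rises and falls at each day and at least 10 fragments in each library of the higher group. The genes and lists were chosen with earlier results of these data known. Alternatives were DESeq2 1.42.0, the library letter as a replicate block, other filters, scalings and thresholds, and leaving out each library. Promoters came from the RefSeq table of build GRCr8, and no other coordinate uses that build. The procedure was tested on simulated data. Figures were drawn with matplotlib 3.10.9.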

Additional observations from a re-analysis of the deposited data

Results flagged for a closer look

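For 2 channel genes the effect of injury differed between the days when D7 was tested against D4. Scn7a was higher at D7 than at D4 by 2.49 on the log2 scale (edgeR adjusted p = 0.0143), with fitted values of −3.64 at D4 and −1.16 at D7 against control. Scn10a was higher by 5.38 on the fitted log2 scale (edgeR adjusted p = 0.0376), a value that depends on the prior count because the D4 libraries held 1 and 0 fragments.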

How the results depend on the processing

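Of the channel genes called at D4, 7 of 10 kept their call in every setting (Scn7a, Scn3b, Cacna1c, Cacna1b, Cacnb3, Cacnb4 and Cacng4). These 7 also passed the test of the 2-fold change itself. With that test set aside, 6 of 11 kept their call at D7 (Scn3b, Cacna1c, Cacna1b, Cacnb2, Cacnb3 and Cacnb4). Of these 6, only Cacnb2 missed the test of the 2-fold change (edgeR adjusted p = 0.0938). Between the days 0 of 2 kept their call. With the adjusted p alone, 14 of the 30 channel genes were called at D4, 5 of them upregulated, beside 6715 of all 15195 genes. At D7 the same limit called 16, with 6 upregulated, beside 5705 of all. Counting 2-fold changes without a test gave 15 channel genes at D4, 12 of them downregulated, beside 4179 of all genes. It gave 5 between the days, beside 1195 of all, and 12 lncRNA transcripts on channel loci at each day. Testing the 2-fold change itself gave 5 channel genes at D7, 3 of them downregulated, beside 1217 of all genes. Between the days it gave 0, beside 37 of all. It also gave 6 and 5 partner genes at D4 and D7, and 0 lncRNA transcripts at D4. Without TMM factors 6 channel genes were upregulated at D7 and 4 lncRNA transcripts were called at D4, and the share of upregulated genes among all calls was 69.3% at D4 and 70.4% at D7 in place of 51.2% and 52.1%. A mean count of at least 10 gave 1 channel gene between the days. For lncRNA transcripts at D4, DESeq2 gave 4, the fit of the 2 groups compared 1 and no low-count filter 0, and DESeq2 gave 1 at D7. A replicate block for the library letter left 1 channel gene called between the days and 1 lncRNA transcript at each day. The letters mark different rats, and the deviations of same-lettered libraries correlated by 0.02, 0.24 and −0.19 across genes for control and D4, control and D7, and D4 and D7. Leaving out 1 library gave 5 to 9 downregulated channel genes at D7, 0 to 2 called between the days, 7 to 17 partner genes at D4 and 0 to 1 lncRNA transcripts at D4.

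Among the genes named, signs changed only for values without a call. Without TMM factors the log2 fold change became 0.03 for Cacna1g and 0.22 for Scn4a at D4, and 0.22 for Cacna1h and 0.07 for Scn2b at D7. Leaving out 1 library gave ranges that crossed 0 at D4 for Cacna1g (−0.51 to 0.05), Cacna1h (−0.85 to 0.11), Cacna2d1 (−1.04 to 0.11), Cacna2d2 (−0.21 to 0.27), Scn1a (−1.84 to 1.02) and Scn4a (−0.51 to 0.56), and at D7 for Cacna1h (−0.47 to 0.49), Cacna2d2 (−0.26 to 0.42), Scn1a (−2.55 to 0.31), Scn4a (−0.90 to 0.16) and Scn9a (−0.24 to 0.40). The cause was not tested. The calls of Scn10a and Cacng7 rest on at most 30 and 29 fragments in a library.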

Other observations

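The spans of 10 of the 40 channel genes overlap another listed gene. The overlapping genes held 0 to 11 fragments in all, except Lrtm2, which lies on the span of Cacna2d4 and held 1613 against 12 for Cacna2d4.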
